A study of Mus musculus with 12 samples.

Results

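Transcript levels of 7 genes of redox metabolism, Nnt, Glo1, Hagh, Gsr, Txnrd2, Prdx3 and Idh2, were followed in the medial prefrontal cortex of 2 inbred mouse strains. The genes were chosen with earlier results of these data known, by a rule that names genes and uses no measured value. Nnt and Glo1 were named because inbred mouse strains are known to differ in the structure or copy number of these loci, and the others as related redox enzymes. They are 7 of the 55678 gene names in the deposited table, and all 7 reached the level required for testing. RNA sequencing had been carried out on 12 libraries in 4 groups of 3, crossing strain (C57BL/6JmsSlc, called B6, and BALB/cCrSlc, called BALB/c) with chronic restraint stress (CRS) or handling alone. Mice were 9 to 10 weeks old, CRS mice were held in restrainers for 6 h on each of 21 days, and no group carried a transgene or an induced mutation according to the labels. A 1.5 mm punch of the cortex was taken after behavioural tests. Libraries are named here by the number in their label: 2, 3 and 9 for B6 controls, 12, 13 and 14 for B6 CRS, 5, 9 and 10 for BALB/c controls, and 12, 13 and 15 for BALB/c CRS. Values of a group are always given in that order.

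Mitochondria detoxify hydrogen peroxide with thioredoxin and glutathione systems that both draw on NADPH. Nnt encodes nicotinamide nucleotide transhydrogenase, an enzyme of the inner mitochondrial membrane that uses the proton gradient to make NADPH from NADH, and Idh2 encodes the NADP-dependent isocitrate dehydrogenase of the matrix. Txnrd2 encodes the mitochondrial thioredoxin reductase, a selenoprotein that spends NADPH to keep thioredoxin reduced for the peroxiredoxin encoded by Prdx3, and Gsr encodes glutathione reductase. Glo1 and Hagh encode glyoxalase 1 and 2, which with glutathione convert methylglyoxal, a reactive by-product of glycolysis, to lactate. C57BL/6J mice of the Jackson Laboratory, the strain of the mouse reference genome, carry a deletion of several Nnt exons, and some inbred strains carry an additional copy of the segment with Glo1. Whether the B6 and BALB/c mice used here carry either change was not tested.

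The 5 cortical excitatory neuron markers were present in every library (Slc17a7 at 390 to 1070 TPM). They mark cortex and not the medial prefrontal area in particular, and their summed level was 483 to 1320 TPM in B6 and 967 to 1130 TPM in BALB/c. TPM, the unit of the deposited values, is a level corrected for transcript length and scaled to the same total in each library, so the sequencing depth behind a value is unknown. Between 14805 and 15542 genes reached 1 TPM. Markers of other tissue differed with strain: the summed level of 6 myelin markers was 2400 to 9220 TPM in B6 and 461 to 2950 in BALB/c, and that of 6 markers of the neighbouring striatum was 174 to 2460 TPM in B6 and 82.2 to 315 in BALB/c. The striatal sum exceeded the cortical sum in B6 control 2 (2460 against 532 TPM), B6 CRS 12 (2000 against 483 TPM) and B6 CRS 13 (1440 against 688 TPM). No striatal or myelin marker was at 0 in any library. The summed level of 5 astrocyte markers was 358 to 538 TPM in B6 and 293 to 428 in BALB/c, and that of 5 microglia markers was 157 to 201 and 155 to 184 TPM. BALB/c CRS 12 stood apart with 3.97% of its TPM on 18S ribosomal RNA, against at most 0.169% elsewhere. In whole tissue, fewer cells of a type and less RNA per cell cannot be told apart.

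Hagh was the most abundant of the 7 transcripts, with a mean of 103 ± 11.5 TPM (SD over the 12 libraries). It was followed by Glo1 at 77.1 ± 13.2, Prdx3 at 53.8 ± 5.06, Idh2 at 41.6 ± 9.20, Gsr at 24.4 ± 4.51, Txnrd2 at 15.9 ± 2.68 and Nnt at 10.7 ± 1.94 TPM. Idh2 was above Gsr in 12 of 12 libraries with ranges that did not overlap. Every other pair of neighbours in this order had overlapping ranges, although Glo1 exceeded Prdx3, Gsr exceeded Txnrd2 and Txnrd2 exceeded Nnt in 12 of 12 libraries. Hagh exceeded Glo1 in 10 of 12 libraries and Prdx3 exceeded Idh2 in 11.

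**Figure D1:**
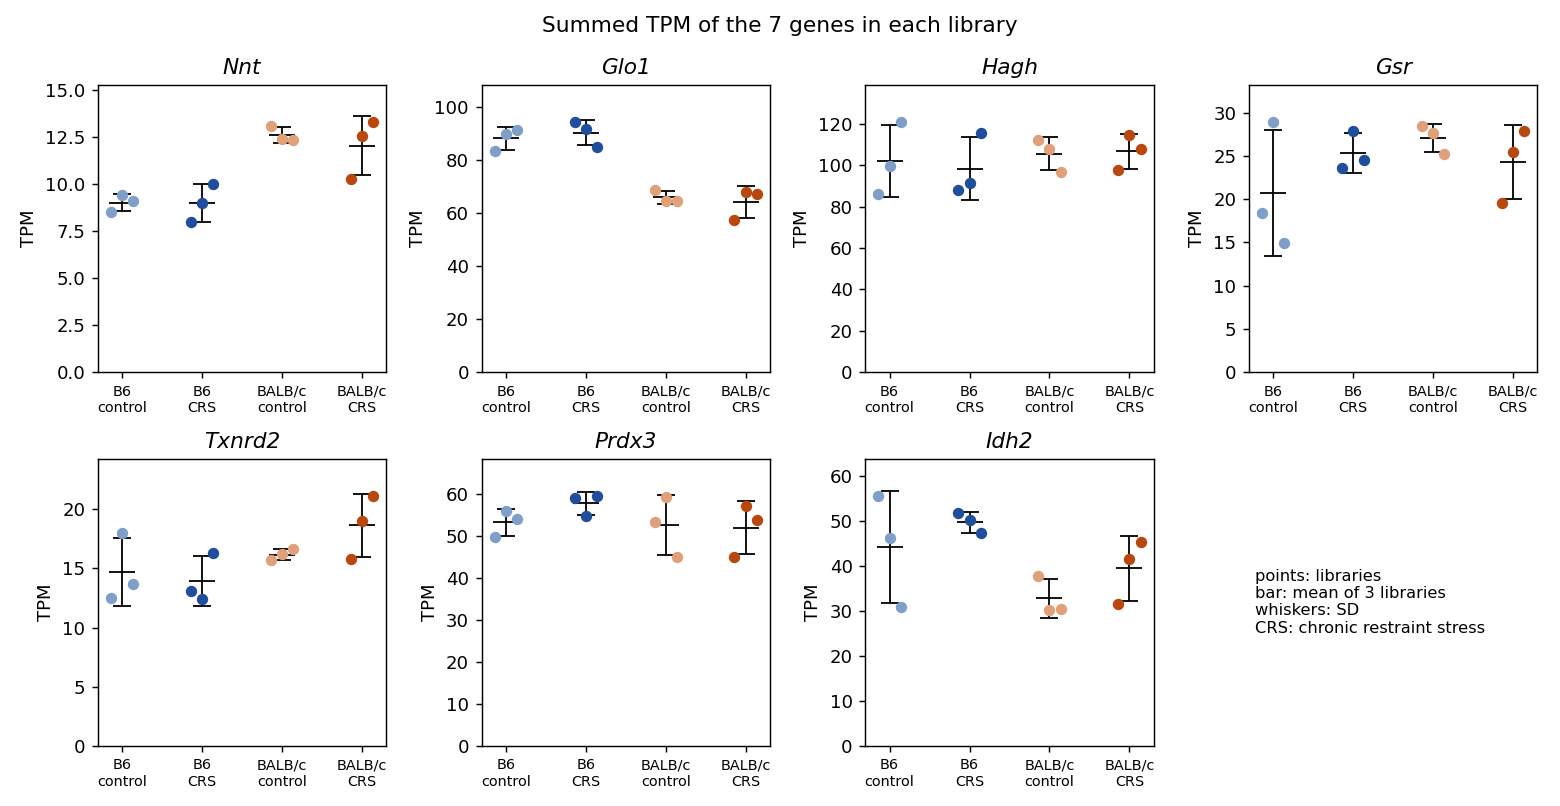
Summed TPM of each of the 7 genes (y axis, from 0) in the 4 groups (x axis), with 1 point per library, a bar at the mean of 3 libraries and whiskers of 1 SD. All 6 BALB/c libraries lie above all 6 B6 libraries for Nnt (10.3 to 13.3 against 7.98 to 10.01 TPM) and below them for Glo1 (57.4 to 68.5 against 83.2 to 94.1 TPM), while the strains overlap for the other genes. The share of all tested genes with such a separation of the strains is not given.

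The question behind the strain comparison was whether these loci are transcribed at different levels in the 2 strains, with and without restraint. Strain was compared within controls and within CRS mice with limma on log2(TPM + 1), and a gene was called when its Benjamini-Hochberg adjusted p over 16423 genes was under 0.05. Glo1 was called in both comparisons, lower in BALB/c, and was the only called member of the 7. Of all tested genes, 4.73% were called in controls and 7.7% under CRS. The groups did not overlap for 2 of 7 members in controls (Nnt and Glo1), against 22.9% of all genes, and for 3 of 7 under CRS (Nnt, Glo1 and Idh2), against 29.3%. Calls over all genes leaned to lower values in BALB/c, with 224 higher and 553 lower in controls and 389 higher and 875 lower under CRS. That lean depended on the scaling: with median-of-ratios factors the split was 344 higher and 389 lower in controls and 642 higher and 749 lower under CRS. This scaling also moved the median change of all genes in controls from -0.10 to 0.01.

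Nnt, which lies at chr13:119335448-119408997 on the minus strand (GRCm38, GENCODE M21), had a higher mean in BALB/c without passing the threshold. On the TPM + 1 scale of the fit it was at 1.36 times the B6 level in controls and 1.3 times under CRS. In controls it stood at 8.52, 9.38 and 9.10 TPM in B6 and, in BALB/c, at 13.1, 12.4 and 12.3 TPM. Under CRS it stood at 7.98, 8.97 and 10.01 TPM in B6 and at 10.3, 12.6 and 13.3 TPM in BALB/c. Every BALB/c library was thus above every B6 library, with BALB/c CRS 12 the lowest of its strain. The means were 9.00 ± 0.441 and 12.6 ± 0.429 TPM in controls (SD, n = 3 each) and 8.99 ± 1.02 and 12.0 ± 1.57 TPM under CRS.

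The Nnt difference on the log2 scale was 0.44 in controls (SE 0.12, 95% interval 0.17 to 0.71, adjusted p = 0.0696 in limma). Under CRS it was 0.38 (SE 0.12, interval 0.11 to 0.65, adjusted p = 0.0838). With strain labels exchanged within treatments, an exact two-sided permutation test of Nnt alone gave p = 0.005, the smallest value the 400 relabellings allow. That value follows from the separation of the strains, for which no share over all tested genes is given. Nnt passed the threshold in both comparisons when scaling was changed, to 0.56 (adjusted p = 0.00295) in controls and 0.44 (adjusted p = 0.0117) under CRS with median-of-ratios factors in limma. It also passed in controls when BALB/c CRS 12 was left out (0.44, adjusted p = 0.0361 in limma), which changed the estimate of the spread and not the libraries compared. With the highest row in place of the sum, the Nnt difference was 0.19 in controls and 1.18 under CRS, neither called. Nnt was also not called in either comparison with myelin or striatal markers in the model. Over all 23 alternatives it passed in 4 in controls and 3 under CRS, where the smallest difference was 0.26.

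The table held 6 rows named Nnt, each with a gene name only, so that rows are numbered here by their order and were not matched to transcripts. Row 6 carried most of the level, at 6.22 to 9.27 TPM in BALB/c and 5.87 to 8.77 TPM in 5 of the 6 B6 libraries. In B6 CRS 12, row 6 was listed at 0 and row 2 stood at 7.47 TPM, 93.6% of the gene. Row 2 was otherwise above 0 in 3 libraries, at 2.51 TPM in B6 control 9, 3.11 TPM in B6 CRS 14 and 4.04 TPM in BALB/c control 10. Row 1 was higher in 5 of 6 BALB/c libraries than in any B6 library: it stood at 3.49, 2.77 and 0 TPM in BALB/c controls and 3.39, 2.66 and 3.30 TPM in BALB/c CRS mice, against at most 0.776 TPM in B6.

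Of the 6 Nnt rows, 3 were tested over the 46000 rows that passed the filter, and none was called, against 1.69% of rows in controls and 2.08% under CRS. Row 1 differed by 1.08 (SE 0.50, adjusted p = 0.419 in limma) in controls and by 1.84 (SE 0.50, adjusted p = 0.102) under CRS. Row 6 differed by 0.19 (SE 0.64) and 1.18 (SE 0.64), and row 2 by 0.17 (SE 0.84) and -1.71 (SE 0.84), the latter lower in BALB/c. In TPM, rows 1, 2 and 6 contributed 1.83, 0.511 and 1.13 of the 3.59 by which the Nnt means differed in controls. Under CRS they contributed 2.95, -3.52 and 3.47 of 3.04. Row 2 was highest in the library in which row 6 was listed at 0, and the summed level there, 7.98 TPM, was the lowest of the 12. The longest Nnt coding model in the reference annotation has 835 codons in 17 exons. The reference genome comes from a strain with missing Nnt exons, and the effect of this on the TPM values was not tested.

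**Figure D2:**
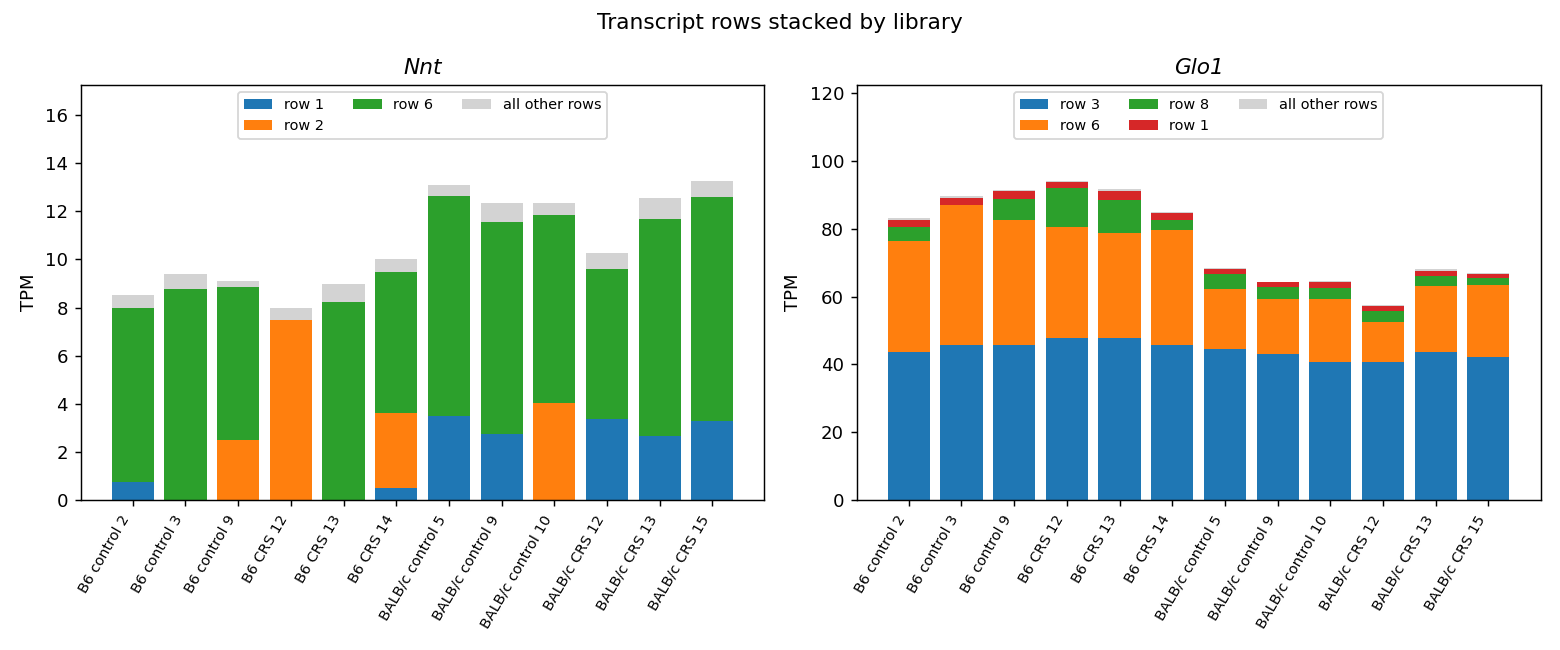
TPM of the table rows named Nnt and Glo1, stacked by library (x axis: library, y axis: TPM from 0). Row 1 of Nnt is at 2.66 to 3.49 TPM in 5 of 6 BALB/c libraries, and row 6 of Glo1 is at 30.9 to 41.3 TPM in B6 and 11.6 to 21.3 TPM in BALB/c, while row 3 of Glo1 covers 43.8 to 47.9 and 40.7 to 44.5 TPM.

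Glo1, at chr17:30584936-30626871 on the minus strand, was lower in BALB/c. On the TPM + 1 scale of the fit it was at 0.75 times the B6 level in controls and 0.713 times under CRS. In controls the levels were 83.2, 89.7 and 91.4 TPM in B6 and 68.5, 64.4 and 64.6 TPM in BALB/c. Under CRS they were 94.1, 91.6 and 84.9 TPM in B6 and 57.4, 68.1 and 67.0 TPM in BALB/c. No library of one strain reached the range of the other, and BALB/c CRS 12 was again the lowest. The means were 88.1 ± 4.37 against 65.8 ± 2.31 TPM in controls and 90.2 ± 4.77 against 64.1 ± 5.88 TPM under CRS (SD, n = 3 each).

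The log2 difference of Glo1 was -0.42 in controls (SE 0.09, 95% interval -0.62 to -0.21, adjusted p = 0.0266 in limma). Under CRS it was -0.49 (SE 0.09, interval -0.70 to -0.28, adjusted p = 0.00955), and the difference without BALB/c CRS 12 was -0.41. The exact permutation test of Glo1 alone gave p = 0.005, the smallest possible, which likewise follows from the separation of the strains. The call in controls was lost without any of the 3 BALB/c controls or without B6 control 3 (adjusted p = 0.0603 to 0.108 in limma), and that under CRS without B6 CRS 12 (-0.46, adjusted p = 0.0519). The median-of-ratios factors under which Nnt passed ended the Glo1 call in controls (-0.29, adjusted p = 0.0568 in limma). With the mean log2 level of the myelin markers in the model the differences were -0.37 (adjusted p = 0.341) and -0.44 (adjusted p = 0.236), and with that of the striatal markers -0.45 (adjusted p = 0.0505) and -0.55 (adjusted p = 0.127), all in limma.

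The strain difference of Glo1 was uneven over its 10 rows, of which 8 had a value above 0 and 4 were tested. Row 3, the most abundant, averaged 45.1 ± 1.16 TPM in B6 and 42.8 ± 1.89 TPM in BALB/c without restraint, and at 47.2 ± 1.21 and 42.2 ± 1.52 TPM under CRS (SD, n = 3). Its differences of -0.08 (SE 0.08, adjusted p = 0.775 in limma) and -0.16 (SE 0.08, adjusted p = 0.396) were not called. Row 6 held 36.9 ± 4.40 TPM in B6 and 17.4 ± 1.10 TPM in BALB/c without restraint, and 32.5 ± 1.46 and 17.5 ± 5.13 TPM under CRS. It was called in both comparisons, at -1.04 (SE 0.19, adjusted p = 0.0173 in limma) and -0.90 (SE 0.19, adjusted p = 0.0358).

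In TPM, row 6 accounted for -19.5 of the -22.3 difference in Glo1 means in controls. Under CRS it accounted for -15.0 of -26.1, with -5.35 from row 8 and -4.94 from row 3. Row 6 made up 33.7% to 46.0% of Glo1 in the B6 libraries and 20.3% to 31.9% in the BALB/c libraries, so its share did not overlap between strains. When each gene was represented by its highest row in place of the sum, the Glo1 difference was -0.08 in controls (adjusted p = 0.662 in limma) and -0.16 under CRS (adjusted p = 0.252). Row 6 also lost its call with myelin markers in the model (-0.98, adjusted p = 0.253, and -0.84, adjusted p = 0.421 in limma), under CRS also with striatal markers (-1.07, adjusted p = 0.279) or the replicate block (-0.90, adjusted p = 0.0733), and when single libraries were left out. In controls these were B6 control 3 and each BALB/c control (adjusted p up to 0.0841 in limma), and under CRS each B6 CRS library, each BALB/c control and BALB/c CRS 13 (adjusted p up to 0.119).

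Of the genes that flank Glo1 on chromosome 17, the 5 nearest tested protein-coding genes on each side were examined, and none was called in either comparison. Btbd9, a neighbour that lies in the segment known to be copied with Glo1 in some strains, differed by 0.07 (SE 0.14, 95% interval -0.24 to 0.38) in controls and 0.14 (interval -0.17 to 0.45) under CRS. Glp1r, the receptor of glucagon-like peptide 1, was at 3.11 against 0.273 TPM in controls and 8.27 against 2.21 TPM under CRS, with intervals of -2.98 to 0.22 and -3.14 to 0.06. Dnah8 stayed below the filter, at 0.314 to 0.476 TPM in the group means. Around Nnt, 1 of the 10 nearest genes was called under CRS, against 7.7% of all tested genes, and none in controls. It was 3110070M22Rik, at 1.45 TPM in B6 CRS mice and 3.29 TPM in BALB/c CRS mice (0.82, SE 0.19, adjusted p = 0.024 in limma). That call was lost in 8 of 22 alternatives, with myelin or striatal markers in the model, the highest row, no filter or the replicate block, and without B6 CRS 12, B6 CRS 13 or BALB/c CRS 13 (adjusted p 0.0556 to 0.338 in limma). In controls 3110070M22Rik was at 1.97 TPM in B6 and 2.64 TPM in BALB/c (adjusted p = 0.443 in limma).

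Hagh, the second enzyme of the glyoxalase pathway (chr17:24840143-24864450, plus strand), had no called strain difference. Its control levels were 86.2, 99.7 and 121 TPM in B6 against 112, 108 and 96.8 TPM in BALB/c. Under CRS they were 88.2, 91.4 and 116 TPM in B6 and 97.6, 115 and 108 TPM in BALB/c. The strains overlapped, and B6 spanned the wider range in both treatments. The log2 difference was 0.06 (95% interval -0.25 to 0.36) in controls and 0.12 (interval -0.18 to 0.43) under CRS, so a change like that of Glo1 lay outside both intervals, whereas a p that misses the threshold does not show equal levels.

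The promoters of the glyoxalase pair are shown because genes of glutathione metabolism often carry the antioxidant response element bound by NRF2. The element's core, TGACNNNGC, was searched on both strands in RefSeq promoters (GRCm38.p6, 250 bases before to 50 after each start). Of the 7 members, 5 had an entry (Nnt and Gsr had none), with 6 promoters in all because Hagh has a pair. The core was found in 1 of the 6, the downstream promoter of Hagh, against 12.4% of all 32817 promoters of this length. The first sequence is the Glo1 region before its start, chr17:30612660-30612909 on the minus strand, with no match, and the second is the region of Hagh around its match, chr17:24850677-24850706 on the plus strand, with the core in capitals, beginning at base 21 after the start.
Glo1: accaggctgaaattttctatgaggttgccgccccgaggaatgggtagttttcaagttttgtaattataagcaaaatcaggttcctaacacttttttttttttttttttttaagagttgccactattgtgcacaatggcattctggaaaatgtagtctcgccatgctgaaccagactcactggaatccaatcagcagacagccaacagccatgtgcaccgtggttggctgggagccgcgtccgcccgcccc
Hagh: gtctaggtacTGACGCGGCgcggccgggtg
These are the letters of the reference strain, and the promoters of B6 and BALB/c were not compared. No binding was measured in the series.

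Gsr, glutathione reductase (chr8:33652523-33698163, plus strand), was most variable in B6 controls, at 18.4, 28.9 and 14.9 TPM. BALB/c controls were at 28.4, 27.6 and 25.2 TPM. Under CRS the levels were 23.6, 27.9 and 24.5 TPM in B6 and 19.5, 25.4 and 27.9 TPM in BALB/c. B6 control 3 thus lay above all BALB/c controls while the other 2 B6 controls lay below them. The difference was 0.42 in controls (SE 0.20, 95% interval -0.02 to 0.86, adjusted p = 0.293 in limma) and -0.07 under CRS (interval -0.51 to 0.37, adjusted p = 0.875). Without BALB/c CRS 12 the latter was 0.07.

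Of the mitochondrial thioredoxin pair, Txnrd2 (chr16:18426384-18479073, plus strand) had control levels of 12.5, 17.96 and 13.7 TPM in B6 against 15.7, 16.2 and 16.6 TPM in BALB/c. Under CRS it was at 13.1, 12.4 and 16.3 TPM in B6 and 15.8, 19.0 and 21.1 TPM in BALB/c. The groups overlapped in both treatments by a single B6 library. The difference was 0.14 in controls (SE 0.16, 95% interval -0.19 to 0.48, adjusted p = 0.68 in limma) and 0.40 under CRS (SE 0.16, interval 0.06 to 0.73, adjusted p = 0.143).

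Prdx3, the peroxiredoxin that Txnrd2 serves through thioredoxin (chr19:60864051-60874556, minus strand), varied least of the 7 relative to its mean, with a coefficient of variation of 9.4% over the 12 libraries. Its control levels were 49.6, 55.9 and 54.0 TPM in B6 against 53.4, 59.3 and 44.99 TPM in BALB/c. Under CRS it was at 59.1, 54.6 and 59.4 TPM in B6 and 44.8, 57.1 and 53.7 TPM in BALB/c. The strains overlapped in both treatments, and the lowest library was a BALB/c library in each. The difference was -0.02 (95% interval -0.29 to 0.24) in controls and -0.16 (interval -0.42 to 0.11) under CRS.

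Idh2 (chr7:80094846-80115392, minus strand), the other mitochondrial source of NADPH among the 7, had lower means in BALB/c without passing the test. The B6 controls held 55.6, 46.3 and 30.9 TPM, and the BALB/c controls held 37.8, 30.1 and 30.5 TPM. Under CRS it was at 51.9, 50.2 and 47.3 TPM in B6 and 31.4, 41.6 and 45.4 TPM in BALB/c. B6 control 9 was the only B6 library within the BALB/c range, and it was also the B6 library with the lowest summed myelin (2400 TPM) and striatal (174 TPM) markers. Whether these are related was not tested. The difference was -0.39 in controls (SE 0.20, 95% interval -0.81 to 0.04, adjusted p = 0.314 in limma) and -0.34 under CRS (interval -0.77 to 0.08, adjusted p = 0.32). Without B6 control 9 it was called in controls, at -0.62 (adjusted p = 0.04 in limma). Over all 23 alternatives the control difference ran from -0.62 to -0.04 and was called in 2. With myelin markers in the model the difference under CRS was 0.02, and with striatal markers 0.17. The exact permutation test within treatments, run on each of the 7 genes and not adjusted, gave p = 0.035 for Idh2, 0.04 for Txnrd2, 0.3 for Prdx3, 0.325 for Gsr and 0.375 for Hagh.

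**Figure D3:**
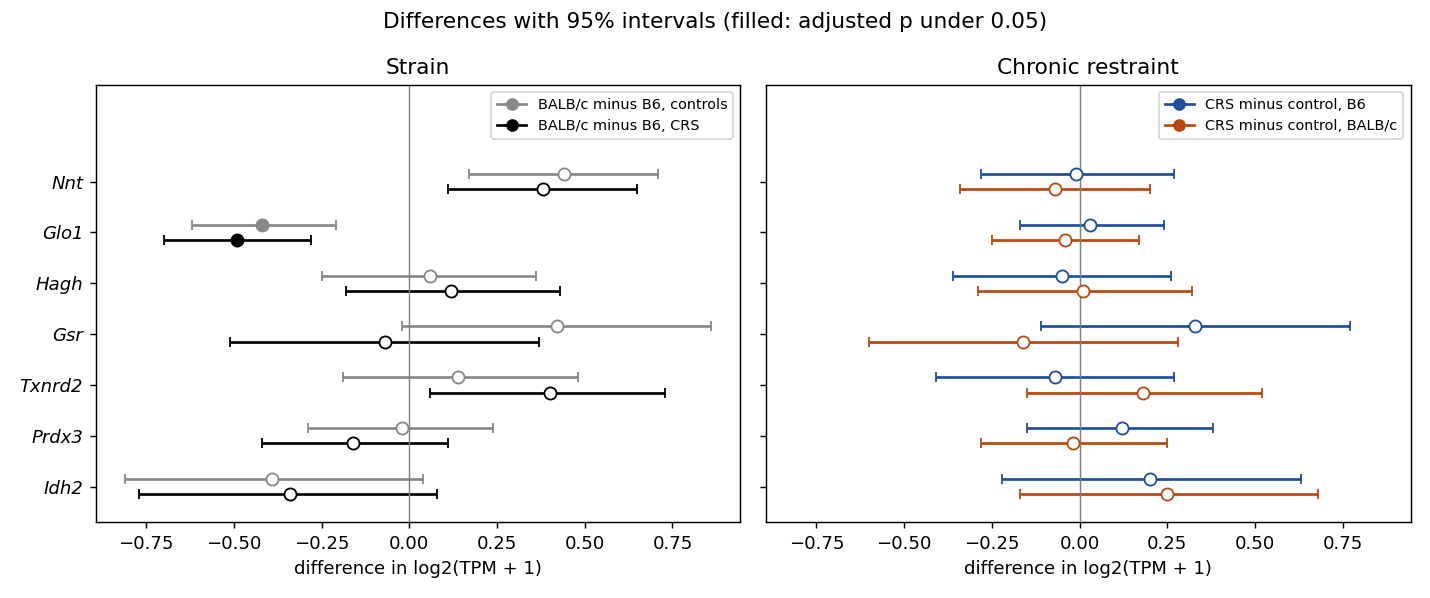
Differences in log2(TPM + 1) of the 7 genes with 95% intervals from limma (x axis), by strain within each treatment (left) and by restraint within each strain (right); filled points have an adjusted p under 0.05. The Glo1 strain differences of -0.42 and -0.49 are the filled points, the Nnt intervals of 0.17 to 0.71 and 0.11 to 0.65 lie above 0 without passing the adjustment, and each restraint interval includes 0.

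Chronic restraint was compared with handling alone within each strain. None of the 7 genes was called, where the background was 0% of all genes in B6 and 0.00609% in BALB/c, a single gene. At an unadjusted p under 0.05, limma counted 792 genes (4.82%) in B6 and 497 (3.03%) in BALB/c, and no member was among them. The changes of the members ran from -0.07 (Txnrd2) to 0.33 (Gsr) in B6 and from -0.16 (Gsr) to 0.25 (Idh2) in BALB/c. The narrowest intervals were those of Glo1, -0.17 to 0.24 in B6 and -0.25 to 0.17 in BALB/c. Nnt averaged 9.00 TPM in B6 without restraint and 8.99 TPM after it, with an interval of -0.28 to 0.27.

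The largest restraint change, that of Gsr in B6, moved from 20.7 ± 7.28 to 25.3 ± 2.28 TPM (SD, n = 3; 0.33, SE 0.20, 95% interval -0.11 to 0.77). It ranged from 0.13 without B6 control 9 to 0.58 without B6 control 3. Idh2 had a higher mean after restraint in both strains, 44.3 to 49.8 TPM in B6 and 32.8 to 39.5 TPM in BALB/c. Averaged over strains its change was 0.23 (SE 0.14, interval -0.07 to 0.53, adjusted p = 0.96 in limma). Whether restraint acted differently in the strains was tested as an interaction, for which no gene was called and 443 (2.7%) had an unadjusted p under 0.05 in limma. The interaction terms of the 7 ran from -0.49 for Gsr (SE 0.29, interval -1.11 to 0.13) to 0.25 for Txnrd2 (SE 0.22, interval -0.23 to 0.73). BALB/c CRS 12 was the lowest library of its group for 7 of 7 members. Without it the restraint changes in BALB/c ran from -0.02 (Gsr) to 0.40 (Idh2), and none was called.

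Within groups, most pairs of the 7 genes correlated positively. BALB/c CRS 12 was the lowest of its group for 7 of 7 members, and its part in the correlations was not tested. After the group means were removed, the highest correlations over the 12 libraries were between Nnt and Txnrd2 (Pearson r = 0.748), Nnt and Hagh (r = 0.67), Gsr and Txnrd2 (r = 0.653) and Gsr and Idh2 (r = 0.601), which are descriptions of libraries that share a total of TPM. Only Hagh with Idh2 (r = -0.398) and Hagh with Gsr (r = -0.0728) ran the other way. Nnt and Glo1, which differed between strains in opposite directions, had r = -0.788 over the 12 libraries and r = 0.427 within groups.

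Other genes with the pattern of Nnt or Glo1 were ranked by Pearson r of log2(TPM + 1) over the 12 libraries among 13110 genes. Closest to Nnt were Pih1d1 (r = 0.974), Sap130 (r = 0.954) and Stat3 (r = 0.951). Pih1d1, part of a chaperone complex, spanned 31.2 to 43.1 TPM in B6 and 51.6 to 65.9 TPM in BALB/c. Stat3, a transcription factor of cytokine signalling, spanned 19.9 to 21.9 and 28.9 to 40.6 TPM. Closest to Glo1 were Klhl9 (r = 0.982), Dcdc2b (r = 0.977) and Gabrg3 (r = 0.971). Klhl9, an adaptor of a ubiquitin ligase, spanned 37.2 to 39.9 TPM in B6 and 21.2 to 25.9 TPM in BALB/c, and Gabrg3, a GABA-A receptor subunit, spanned 7.49 to 8.72 and 4.76 to 5.90 TPM. For each of these 6 genes the ranges of the strains did not overlap. The choice by correlation with Nnt or Glo1, whose own strain ranges are apart, favours such genes, so this is no separate result.

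The wider pathways were described with 57 related genes, all of which passed the filter, in groups for glutathione, thioredoxin and peroxiredoxin, NADPH supply, superoxide and peroxide, and dicarbonyl metabolism. In controls, 1 was called higher and 2 lower in BALB/c (background 1.36% and 3.37% of all genes). Under CRS, 2 were called higher and 9 lower (background 2.37% and 5.33%). The direction depended on the scaling: median-of-ratios factors gave 4 higher and 0 lower in controls and 4 higher and 7 lower under CRS, and totals without mitochondrial, Bc1 and 18S RNA gave 3 higher and 1 lower and 3 higher and 8 lower. The median change of the list was -0.09 in controls and -0.12 under CRS, beside -0.10 and -0.06 for all tested genes. No gene of the list was called for restraint in either strain or for the interaction.

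Among 19 glutathione genes, Gstm5, a glutathione transferase, fell in both comparisons, from 163 to 120 TPM in controls (-0.43, adjusted p = 0.0213 in limma) and from 165 to 116 TPM under CRS (-0.51, adjusted p = 0.00764). Among CRS mice, Gclc, the catalytic subunit of the enzyme that limits glutathione synthesis, was at 30.3 TPM in B6 and 22.2 TPM in BALB/c. Gpx1, a glutathione peroxidase, was at 154 TPM in B6 CRS mice and 116 TPM in BALB/c CRS mice. Glrx, a cytosolic glutaredoxin, was higher in BALB/c, at 24.0 TPM in B6 CRS mice and 37.3 TPM in BALB/c CRS mice (0.62, SE 0.17). The remaining 15 genes of this group were not called under CRS, and 18 of 19 were not called in controls.

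Of 13 thioredoxin and peroxiredoxin genes, none was called in controls and 2 were called lower in BALB/c than in B6 under CRS. Prdx6, a peroxiredoxin that uses glutathione, was at 255 TPM in B6 CRS mice and 161 TPM in BALB/c CRS mice (-0.66, SE 0.12, adjusted p = 0.00502 in limma). Txnip, an inhibitor of thioredoxin, was at 16.3 and 8.03 TPM (-0.95, SE 0.23). Of 13 genes of NADPH supply, 3 were called lower in BALB/c than in B6 under CRS, and none was called in controls. G6pdx, which opens the pentose phosphate pathway, was at 19.4 TPM in B6 CRS mice and 13.8 TPM in BALB/c CRS mice. Glud1, glutamate dehydrogenase, was at 201 and 150 TPM, and Mthfd2, a mitochondrial folate enzyme, at 8.86 and 3.88 TPM.

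Cat, which encodes catalase, fell in both comparisons, from 27.3 to 17.0 TPM in controls (-0.65, SE 0.15, adjusted p = 0.0294 in limma) and from 27.3 to 17.8 TPM under CRS (-0.61, adjusted p = 0.0306). The other 6 genes of its group were not called. Among 5 dicarbonyl genes, Ldhd, the mitochondrial D-lactate dehydrogenase that takes up the product of the glyoxalase pathway, was higher in BALB/c than in B6. Controls were at 7.09 TPM in B6 and 11.9 TPM in BALB/c (0.69, SE 0.18, adjusted p = 0.0461 in limma). CRS mice were at 5.80 and 12.5 TPM (0.98, SE 0.18, adjusted p = 0.00595 in limma). In the same samples Glo1 was lower and Hagh showed no called difference.

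The calls of the related list moved with scaling, tissue markers and single libraries. With median-of-ratios factors, Gstm5 (-0.31, adjusted p = 0.0739) and Cat (-0.52, adjusted p = 0.0612) were not called in controls, nor Gpx1 (-0.34, adjusted p = 0.063) and G6pdx (-0.40, adjusted p = 0.0693) under CRS, all in limma. Over 23 alternatives in controls and under CRS, Gstm5 kept its call in 17 and 21, Cat in 13 and 14, and Ldhd in 7 and 21. With myelin or striatal markers in the model, 0 of 57 were called in either comparison. In controls the count ranged from 0 (without B6 control 2, BALB/c control 5 or BALB/c control 10) to 11 without B6 control 9, with 1 call left without B6 control 3. Under CRS it was 3 without B6 CRS 12 or BALB/c CRS 12, and 7 or fewer without any other library except B6 controls 2 and 9 and BALB/c control 9. The part of myelin and striatal tissue in these differences was not tested beyond these fits.

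**Figure D4:**
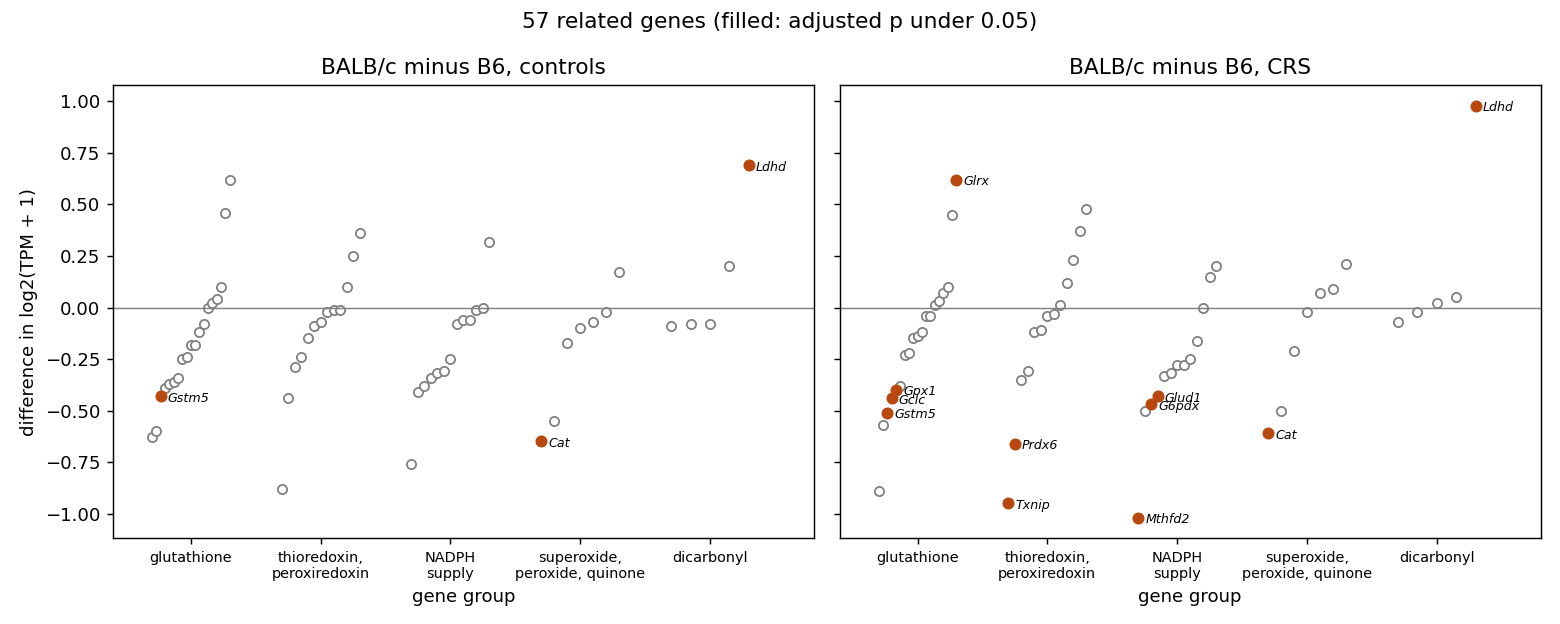
Difference between BALB/c and B6 in log2(TPM + 1) (y axis) of the 57 related genes by group (x axis), in controls (left) and under CRS (right), with genes of adjusted p under 0.05 in limma filled and named. In controls the named genes are Gstm5 (-0.43), Cat (-0.65) and Ldhd (0.69), and under CRS 11 genes are named, from Mthfd2 (-1.02) to Ldhd (0.98).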

How the data were processed

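The authors deposited TPM (transcript abundance scaled to a fixed total) in 147902 rows, each with a gene name and 1 value per library; the unit was read from the columns, which sum to the same total. Per the submitters' processing notes, cutadapt 2.9, Salmon and the build GRCm38 were used, with no role or order given. Groups and replicate numbers came from the sample titles. Nothing in the labels gives sex, litter or batch. The p-values of limma rest on the spread between libraries within groups, pooled over the groups and moderated across all tested genes.

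Rows were summed by gene name, and the 16423 names that reached 1 TPM in 3 or more libraries were fitted on log2(TPM + 1) in limma 3.58.1 (R 4.3.3; lmFit, contrasts.fit, eBayes with trend) as 4 group means over all 12 libraries with 8 residual degrees of freedom and 6 contrasts, and called at a Benjamini-Hochberg adjusted p under 0.05. Fold changes on this scale understate those of low genes. Single rows were fitted likewise. TPM keeps no depth, so counting error is unknown. The model was tested on simulated data.

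The members and all lists were chosen with earlier results of these data known. Named were the 7 members, called genes of the related list (at most 4 per group and contrast by size of change), the 5 nearest tested protein-coding genes on each side of Nnt and Glo1 with Dnah8, Btbd9 and Glp1r, and the 3 genes of highest Pearson r with each. Positions are from GENCODE M21 (GRCm38), in which 48217 of the 55678 names occur; promoters are from RefSeq. The longest transcript of each gene was searched for near-identity to a member (blastn 2.17.0, 95% identity over 80% of the shorter transcript). This covered 15617 of the 16423 tested names, and no such gene was found. Glo1 had alignments short of these limits to 499 genes, and the other members had no alignment. Their effect on the Glo1 values was not tested. The kit marks strand, but whether the counting used it is not given in the sources used here, so values of genes that overlap others on the opposite strand are uncertain. The reference comes from C57BL/6J, and the effect of sequence differences between strains on the values was not tested.

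Alternatives were another pseudocount (0.1), no filter or a mean of 5 TPM, 2 scalings, myelin or striatal marker scores as covariates, replicate numbers as a block, the highest row of a gene, no trend, and leaving out libraries; leaving out 2 libraries together and the alternatives for Glo1 rows and the related list were chosen after seeing the data.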

Additional observations from a re-analysis of the deposited data

How the results depend on the processing

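The Glo1 difference kept its sign in all 23 alternatives of each strain comparison and its call in 14 (controls) and 19 (CRS). The Nnt difference kept its sign in all 23 of each and passed the threshold in 4 and 3. Where a call or sign changed, the cause was not tested. With median-of-ratios factors the single member called in controls was Nnt (0.56) and no longer Glo1 (-0.29, adjusted p = 0.0568 in limma). The Nnt difference ranged from 0.19 to 0.56 in controls and from 0.26 to 1.18 under CRS. Number of members called in controls (main count 1): 0 with the highest row per gene, a myelin covariate, a striatal covariate or the replicate block, 2 with totals without mitochondrial, Bc1 and 18S RNA, 3 without BALB/c CRS 12 and B6 control 9 together, and 0 to 2 without single libraries (0 without B6 control 3 or BALB/c control 5, 9 or 10, 2 without B6 control 9 or BALB/c CRS 12). Under CRS (main count 1): 0 with the highest row or either covariate, 2 with either other scaling or without those 2 libraries, and 0 to 1 without single libraries.

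Genes called in controls (main count 777) numbered 437 at a mean of 5 TPM, 286 with the myelin covariate, 1648 without both libraries and 425 to 1378 without single libraries, lowest without BALB/c control 10 and highest without B6 control 9. Under CRS (1264) they numbered 702 at a mean of 5 TPM, 252 and 245 with the myelin and striatal covariates, 750 with the replicate block and 539 to 1831 without single libraries, lowest without B6 CRS 12 and highest without B6 control 9. Related genes called in controls (3) numbered 5 with the highest row, 0 with either covariate, 1 with no filter, 14 without both libraries and 0 to 11 without single libraries. Under CRS (11) they numbered 0 with either covariate, 6 with no filter, 5 with the replicate block, 6 without both libraries and 3 to 14 without single libraries. For restraint, calls over all genes stayed between 0 and 7. In B6 (0) there were 1 at a mean of 5 TPM, 7 with no filter, 2 with a pseudocount of 0.1, 1 with the replicate block and 0 to 2 without single libraries. In BALB/c (1) there were 3 with the highest row, 2 with the striatal covariate, 0 with a mean of 5 TPM, median-of-ratios factors, no filter, a pseudocount of 0.1, the replicate block or both libraries left out, and 0 to 2 without single libraries. Averaged over strains (1) there were 2 with a mean of 5 TPM, either other scaling or no filter and 0 to 2 without single libraries, and for the interaction (0) 2 with no filter, 1 with the striatal covariate and 0 to 2 without single libraries.

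Signs of differences that were not called turned as follows. By strain in controls: Hagh -0.04 (myelin) and -0.12 (striatal), -0.06 to 0.18 without single libraries; Prdx3 0.10 (median-of-ratios), 0.07 (other total) and 0.14 (myelin), -0.11 to 0.08 without single libraries; row 3 of Glo1 0.05 and 0.02 with the 2 scalings. By strain under CRS: Gsr 0.30 (highest row), 0.24 (myelin), 0.06 (striatal) and 0.07 (both libraries out), -0.17 to 0.07 without single libraries; Hagh -0.24 (striatal); Idh2 0.02 (myelin) and 0.17 (striatal); Prdx3 0.02 (myelin). By restraint in B6: Hagh 0.15 (replicate block), 0.09 (striatal) and 0.08 (both out), -0.17 to 0.08 without single libraries; Idh2 -0.03 (both out), -0.03 to 0.39; Nnt 0.13 (block), 0.04 (striatal), 0.00 (other total) and 0.00 (both out), -0.08 to 0.07; Txnrd2 0.09 (highest row), 0.12 (block) and 0.00 (striatal), -0.18 to 0.08; Glo1 -0.01 to 0.08. By restraint in BALB/c: Glo1 0.04 (both out), -0.08 to 0.04; Gsr 0.07 (highest row); Hagh -0.01 (highest row), -0.05 (median-of-ratios), -0.03 (striatal) and -0.01 (other total), -0.05 to 0.08; Nnt 0.07 (block) and 0.03 (both out), -0.14 to 0.03; Prdx3 0.00 (myelin), 0.08 (block) and 0.08 (both out), -0.12 to 0.08.

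The numbers 9, 12 and 13 occur in both strains, and the labels do not say whether a shared number marks a common block. Deviations from the group means of same-numbered libraries had r = -0.242, -0.0293 and -0.0361 over 16423 genes. With so few libraries these values cannot exclude a block, and the main fit assumed none. With the numbers as a replicate block, Glo1 differed by -0.42 in controls (adjusted p = 0.0754 in limma). The planned sum with near-identical genes gave no value, because no such gene was found. Depth is unknown in TPM, so low rows such as those of Nnt carry a counting error that cannot be stated.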
